A study of Mus musculus with 7 samples.

Results

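Genes of the major histocompatibility complex (MHC) and of antigen presentation were followed in the epidermis of mice that lost Abca12 in adult skin. Members were all genes of the deposited table whose symbol starts with H2-, the mouse name of the MHC, together with Cd74, B2m, Ciita, Tap1, Tap2, Tapbp and Cd1d1 where listed. Of 52 such genes in the GENCODE M21 annotation, 23 are in the table of 7091 genes: 12 class I heavy chain genes or pseudogenes, 1 class I assembly gene (Tap1), 9 genes of the class II pathway and Cd1d1. Only genes that the authors called at an adjusted p-value under 0.05 are in it, 36.5% of the 19407 genes their adjustment ran over. The other 29 genes were not analysed here, among them the classical class I genes H2-K1 and H2-D1, and B2m, Tap2, Tapbp, H2-Oa and H2-Ob.

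Both groups were given tamoxifen at 8 weeks of age, 1 mg per 40 g of body weight on 3 successive days, and 2 weeks afterwards epidermis was taken from telogen (resting hair cycle) skin. KA mice (K14-CreERT;ABCA12-cKO) carry a conditional Abca12 allele and CreERT, a tamoxifen-activated recombinase driven by the keratin 14 promoter, which is active in basal keratinocytes. Control mice (ABCA12-c/c) carry the conditional allele without CreERT, so the comparison contains an active recombinase as well as the deletion. There were 4 KA libraries (KA 1 and KA 2 from males, KA 3 and KA 4 from females) and 3 control libraries (controls 1 and 3 from females, control 2 from a male), numbered as in the sample titles and each from 1 animal.

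Class I molecules display peptides made inside the cell to CD8 T cells and to natural killer cells. Each is a heavy chain bound to beta 2-microglobulin, loaded in the endoplasmic reticulum with peptides that the proteasome cuts and the TAP transporter brings in, and nearly every nucleated cell makes them. Class II molecules display peptides from endosomes to CD4 T cells. They are pairs of an alpha and a beta chain that travel with the invariant chain, Cd74, and exchange its remnant for peptide with the help of H2-DM. In the epidermis class II is best known from Langerhans cells, the resident antigen-presenting cells, and from keratinocytes exposed to interferon gamma. NLRC5 is the transcriptional coactivator of class I genes and CIITA that of class II genes.

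Reads in the listed genes came to between 9590718 and 12761458 per library, and the authors' size factors ran from 0.888 to 1.25. Values below are the authors' normalised reads, that is counts divided by the size factor of the library, unless a scale per length is named. Since all listed genes had been chosen on this contrast in these 7 libraries, a test that finds them changed again is no independent evidence, and the counts of members that pass are read only beside the same count over the table. Of 6761 genes with enough reads, 52.5% passed as higher and 47.5% as lower in KA (edgeR's quasi-likelihood test, adjusted p under 0.05), so that nearly every gene passed. Groups did not overlap in 93.5% of the genes tested. All 23 members had enough reads to be tested. The choice did not set the direction of a member, though it favours large changes.

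The listed members split by class. All 9 class II pathway genes were higher in KA and all 12 class I heavy chain genes were lower. The median log2 fold change was 0.98 for class II and -1.14 for the class I heavy chains, against 0.36 over all genes tested. No member changed direction under any of the alternatives of scaling, filter, tool, covariate or library tried. These are whole-tissue libraries, so a change in the number of cells that make a transcript and a change in RNA per cell cannot be told apart.

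**Figure D1:**
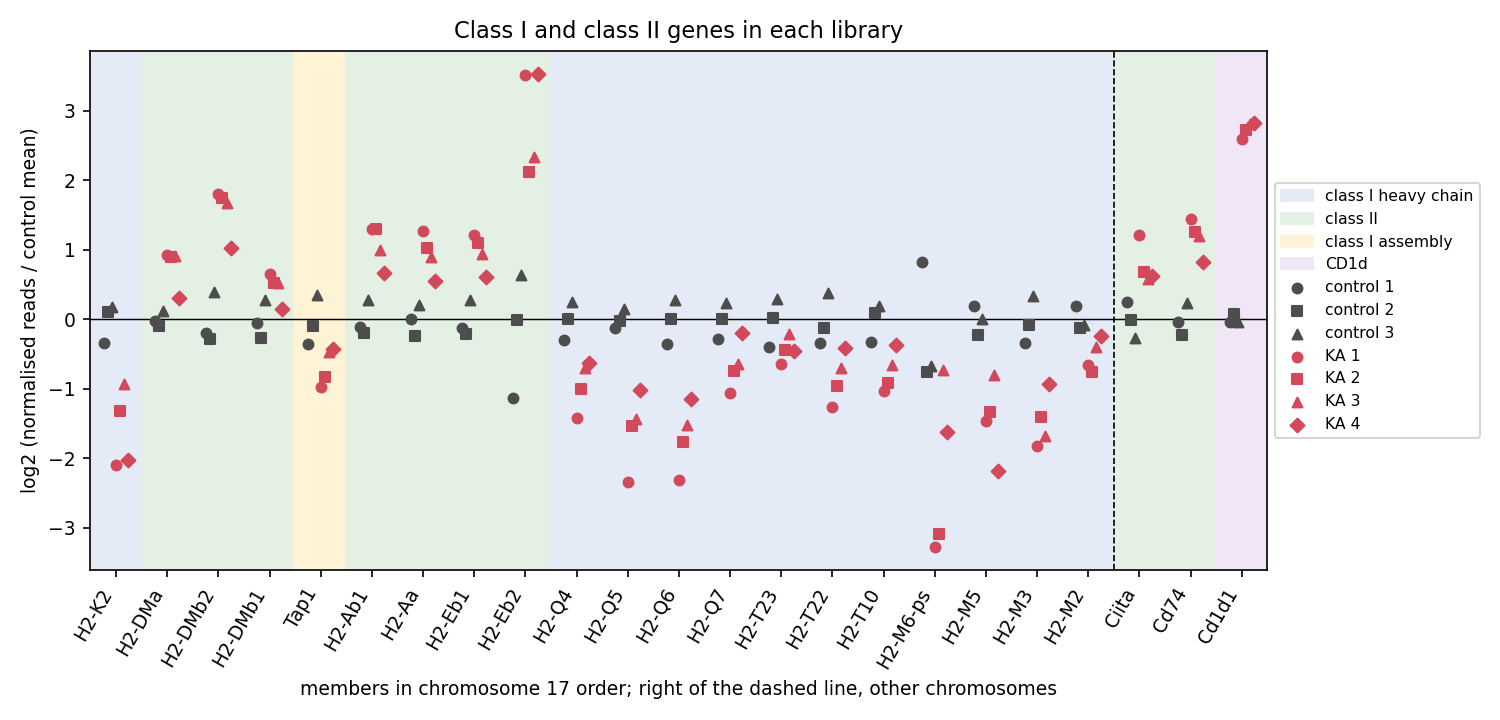
Each point is 1 library: the y axis is log2 of its normalised reads over the control mean of the gene, grey for controls and red for KA. Members stand in their order on chromosome 17, with Ciita, Cd74 and Cd1d1 on the right. KA points lie above 0 in the class II genes and below 0 in the class I heavy chains and Tap1.

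Transcripts of the class II chains H2-Ab1, H2-Aa and H2-Eb1 rose by a factor of 1.94 to 2.13 (ratio of group means). Surface protein was not measured. H2-Ab1, the beta chain of I-A, had 6017, 5659 and 7874 normalised reads in controls (in the order 1 to 3, as in all lists of values here), and in KA mice (in the order 1 to 4) it had 16064, 16062, 12997 and 10309. The lowest KA library was above the highest control, and the log2 fold change was 1.09 (SE 0.19; adjusted p = 0.000527). H2-Aa, the alpha chain of I-A, had 3809.7, 3231 and 4365 in controls and 9187, 7756, 7048 and 5543 in KA, again without overlap, with a log2 fold change of 0.96 (SE 0.18; adjusted p = 0.000794). H2-Eb1, the beta chain of I-E, had 4807, 4526 and 6365 in controls and 12188, 11244, 9996 and 7949.5 in KA, with a log2 fold change of 0.98 (SE 0.18; adjusted p = 0.000679). In all of these KA 4 was the lowest KA library and control 3 the highest control. The ratio of H2-Aa to H2-Ab1 reads within a library stayed between 0.554 and 0.633 in controls and between 0.483 and 0.572 in KA, ranges that overlap.

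Cd74, which encodes the invariant chain (ENSMUSG00000024610, chromosome 18, 60803848 to 60812646 of mm10), was the most abundant member in both groups. It had 11919, 10438 and 14355 normalised reads in controls and 33255, 29123, 28103 and 21604 in KA, without overlap. Its log2 fold change was 1.20 (SE 0.18; adjusted p = 0.000234). The ratio of Cd74 to H2-Ab1 was 1.88 ± 0.0854 (SD, n = 3) in controls and 2.04 ± 0.153 (SD, n = 4) in KA, with overlapping ranges. Ciita, the class II coactivator (chromosome 16, 10480059 to 10528418), had 194, 163 and 136 in controls and 380, 263, 246 and 253 in KA, with no overlap and a log2 fold change of 0.80 (SE 0.21; adjusted p = 0.00543). KA 1 stood above the other KA libraries in Ciita, which lay close together.

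The H2-DM genes, whose product edits the peptides bound by class II, rose unequally. H2-DMb2 had 176, 166 and 264 normalised reads in controls and 702, 675, 647 and 411 in KA, a ratio of group means of 3.01 and a log2 fold change of 1.59 (SE 0.23; adjusted p = 0.000196). H2-DMa had 767, 727 and 847 in controls and 1484, 1455, 1471 and 968 in KA, with a log2 fold change of 0.78 (SE 0.16; adjusted p = 0.00152). In both genes the groups did not overlap and KA 4 was the lowest KA library. H2-DMb1, the near copy of H2-DMb2, had 668, 576 and 847 in controls and 1094, 998, 1006 and 773 in KA, where KA 4 lay below control 3. Its log2 fold change was 0.47 (SE 0.17; adjusted p = 0.0184), and it did not pass with TMM factors (adjusted p = 0.0609), without control 1 (0.056) or without control 2 (0.0849). The ratio of H2-DMb2 to H2-DMb1 was 0.263 to 0.312 in controls and 0.532 to 0.676 in KA. This ratio was looked at because the values differed, so it is given without a test. Of the 50-base windows of H2-DMb2 transcripts, 24.8% also occur in another gene, mostly H2-DMb1, so the split of reads between these genes is uncertain.

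H2-Eb2, a relative of the I-E beta chain, was nearly silent in controls. It had 1, 2 and 4 counts in controls and 24, 8, 10 and 23 in KA, or 2.07 ± 1.13 normalised reads (SD, n = 3) against 16.8 ± 8.15 (SD, n = 4). The log2 fold change was 2.92 (SE 0.63; adjusted p = 0.00179), the largest rise among the class II genes and the one with the fewest reads. Per kb of gene length, control means of the class II genes ran from 8679 normalised reads for Cd74 through 4419 for H2-Eb1, 3981 for H2-Ab1 and 2029 for H2-Aa to 475 for H2-DMa, 469 for H2-DMb1, 118 for H2-DMb2, 17.2 for Ciita and 0.938 for H2-Eb2. In KA the order was the same. On this scale the control ranges of H2-Eb1 and H2-Ab1 overlapped, and so did those of H2-DMa and H2-DMb1.

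**Figure D2:**
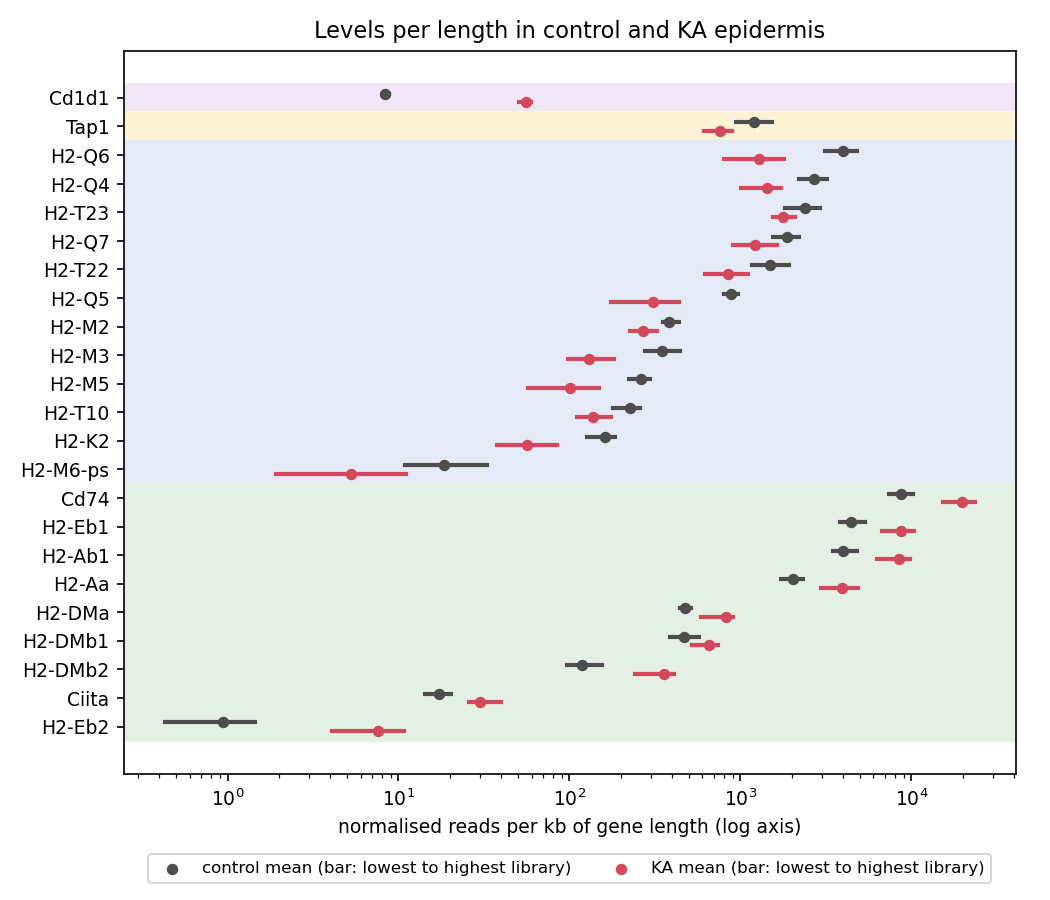
Mean normalised reads per kb of gene length (log axis) for each member in controls (grey) and KA (red), with bars from the lowest to the highest library. Shading marks Cd1d1 (purple), Tap1 (yellow), class I heavy chains (blue) and class II genes (green). Class II genes shift to the right in KA and class I heavy chains to the left, and Cd74 has the highest level in both groups.

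Promoters of class II genes are known for an upstream module of an X box followed by a Y box, an inverted CCAAT, on which CIITA acts through bound factors. RefSeq promoter windows (GRCm38.p6, 250 bases before to 50 after the start of transcription) were used for 15 of the 23 members. The last 190 bases before the start are shown for class II genes of different roles that held an X2 match. Capitals mark 2 kinds of match: an X2 element (GATGATG, or GTCATCA, the other strand of TGATGAC) and CCAAT in either orientation.
H2-Eb1, chr17:34305677-34305866, plus strand: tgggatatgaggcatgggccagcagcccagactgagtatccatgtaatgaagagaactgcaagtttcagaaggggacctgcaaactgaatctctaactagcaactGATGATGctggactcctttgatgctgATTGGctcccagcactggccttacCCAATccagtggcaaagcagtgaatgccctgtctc
H2-DMb1, chr17:34153001-34153190, plus strand: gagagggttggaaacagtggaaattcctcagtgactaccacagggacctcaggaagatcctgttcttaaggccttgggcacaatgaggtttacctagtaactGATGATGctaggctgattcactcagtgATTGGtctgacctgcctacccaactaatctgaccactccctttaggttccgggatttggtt
H2-Aa, chr17:34287824-34288013, minus strand: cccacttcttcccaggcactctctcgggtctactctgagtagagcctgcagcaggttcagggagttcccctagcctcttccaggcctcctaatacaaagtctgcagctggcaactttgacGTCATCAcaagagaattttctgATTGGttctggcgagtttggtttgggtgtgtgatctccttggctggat

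Motifs were chosen after the promoters had been read, were searched on both strands, and a match is only a run of letters. GATGATG was found in 3 of the 6 class II genes searched (H2-Eb1, H2-DMb1 and H2-DMb2), in none of 8 class I heavy chain genes, and in 4.03% of 27025 genes with a window. H2-DMb1 and H2-DMb2 are near copies, so their matches are not independent. TGATGAC was found in H2-Aa and in 6 of the 8 class I heavy chain genes, against 3.73% of all genes. These letter runs share a stretch and could overlap, but no member held both. CCAAT was found in all 6 class II genes and in 7 of the 8 class I genes, against 41.1% of all genes. The H2-DMa window begins at 34125268, far upstream of that gene's start in the deposited table (34135182), so it belongs to another annotated start. That of H2-DMb2 begins at 34144999, past the gene start of 34143307. In H2-Eb1, H2-DMb1, H2-DMb2 and H2-Aa an inverted CCAAT followed the X2 match. The same order was found in the class I genes H2-Q4, H2-Q6, H2-Q7, H2-T22 and H2-M3, so it does not set the classes apart. Tap1 also held GATGATG, on the other strand. No window was used for H2-Ab1, Ciita, Cd74, Cd1d1, H2-K2, H2-Q5, H2-T10 and H2-M6-ps. Windows on chromosome 18, where Cd74 lies, were left out of the search of members by choice, so the class II counts are without Cd74.

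The class I heavy chain members all fell, and none of those listed is a classical class I gene. They are nonclassical genes of the Q, T and M regions and the pseudogene H2-K2. Within the Q region, whose genes include those of the Qa-2 antigen, H2-Q6 (chromosome 17, 35424850 to 35430055) had 6496, 8332 and 10009 normalised reads in controls and 1662, 2427, 2893 and 3732 in KA. Its highest KA library lay well under its lowest control, with a log2 fold change of -1.63 (SE 0.25; adjusted p = 0.000292). H2-Q5, annotated as a polymorphic pseudogene, had 1283, 1373 and 1549 in controls and 277, 483, 516 and 691 in KA, with a log2 fold change of -1.51 (SE 0.24; adjusted p = 0.000416). H2-Q4 had 5676, 6964 and 8289.9 in controls and 2610.4, 3481, 4297 and 4487 in KA, with a log2 fold change of -0.91 (SE 0.19; adjusted p = 0.00167).

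H2-Q7 fell less than its neighbour H2-Q6. It had 6588, 8049 and 9401 normalised reads in controls and 3847, 4778, 5114 and 6952 in KA, where KA 4 lay above control 1. The log2 fold change was -0.63 (SE 0.19; adjusted p = 0.0103). The ratio of H2-Q6 to H2-Q7 reads was 0.986, 1.04 and 1.06 in controls, while the KA libraries had 0.432, 0.508, 0.566 and 0.537. The control and KA ratios did not overlap, and they are given without a test because the pair was chosen for its values. Transcripts of the Q genes resemble each other: 32% of the 50-base windows of H2-Q6, 26.4% of H2-Q7, 36.4% of H2-Q5 and 21.8% of H2-Q4 also occur in another gene. How reads were divided among them is therefore uncertain.

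Among T region genes the falls were moderate. H2-T22, whose product together with that of H2-T10 is recognised by some gamma delta T cells, had 3987, 4632 and 6569 normalised reads in controls and 2108, 2604, 3107 and 3802 in KA. Its log2 fold change was -0.80 (SE 0.22; adjusted p = 0.006). H2-T10, annotated as a polymorphic pseudogene, had 617, 825 and 885 in controls and 381, 411, 492 and 598 in KA, with a log2 fold change of -0.72 (SE 0.18; adjusted p = 0.00414). Groups did not overlap in either gene, though KA 4 was the KA library nearest to control 1 in both. H2-T22 and H2-T10 share 31.2% of the windows of H2-T22, so they are not independent measurements. H2-T23 encodes Qa-1, a ligand of the inhibitory NKG2A receptor of natural killer cells. It had 5265, 7046 and 8463 in controls and 4450.3, 5114, 5995 and 5061 in KA, with overlap. This was the smallest change of the class, -0.43 (SE 0.17; adjusted p = 0.0282), and it did not pass without control 2 (adjusted p = 0.067), control 3 (0.167), KA 1 (0.0669), KA 2 (0.0578) or KA 4 (0.0537).

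M region genes fell as well. H2-M3, which presents peptides that begin with N-formyl methionine, had 398, 475 and 634 normalised reads in controls and 141, 189, 157 and 264 in KA, which is -1.42 on the log2 scale (SE 0.24; adjusted p = 0.000414). H2-M5 had 798, 599 and 706 in controls and 253, 278, 400.02 and 154 in KA, with a log2 fold change of -1.37 (SE 0.26; adjusted p = 0.000993). H2-M2 had 679.8, 543 and 561 in controls and 376, 352, 450.2 and 501 in KA, with a log2 fold change of -0.50 (SE 0.16; adjusted p = 0.0117), and did not pass without control 1 (adjusted p = 0.0549). The groups did not overlap in these genes, and at most 1.61% of their windows occur in another gene.

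Pseudogenes completed the class. H2-K2 had 133, 182 and 192 normalised reads in controls and 39.6, 67.6, 88.8 and 41.5 in KA, with a log2 fold change of -1.51 (SE 0.30; adjusted p = 0.00113). H2-M6-ps held only 36, 11 and 15 counts in controls and 2, 2, 11 and 6 in KA. Its log2 fold change of -1.77 (SE 0.64; adjusted p = 0.0197) rested on control 1: without that library it was -1.07 and did not pass (adjusted p = 0.15), and without KA 3 it was -2.41. With pseudogenes left out, the 8 protein-coding class I genes had a median log2 fold change of -0.85. In all, groups did not overlap in 9 of the 12 class I heavy chains and 8 of the 9 class II genes, against 93.5% of all genes tested. With p-values adjusted over the authors' 19407 genes, 20 of the 23 members passed, against 87.8% of the genes tested. H2-DMb1, H2-T23 and H2-M6-ps did not.

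Upstream of class I genes an NF-kB type element and an interferon response element are known to precede an X box and CCAAT boxes. Promoter stretches of 190 bases are shown for the 4 class I genes that held an interferon-type run, with log2 fold changes from -0.63 to -1.63. Capitals mark matches to GGGATTNCC (NF-kB type), TTTCANTTC (interferon type), TGATGAC and CCAAT, searched on both strands. The genes with a window but without that run, H2-T22, H2-M5, H2-T23 and H2-M2, are not shown. Their log2 fold changes ran from -0.43 to -1.37.
H2-Q6, chr17:35424660-35424849, plus strand: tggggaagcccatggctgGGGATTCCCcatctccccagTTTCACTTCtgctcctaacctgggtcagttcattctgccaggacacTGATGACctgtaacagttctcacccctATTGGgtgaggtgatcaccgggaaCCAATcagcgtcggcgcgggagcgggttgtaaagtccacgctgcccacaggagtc
H2-Q7, chr17:35438965-35439154, plus strand: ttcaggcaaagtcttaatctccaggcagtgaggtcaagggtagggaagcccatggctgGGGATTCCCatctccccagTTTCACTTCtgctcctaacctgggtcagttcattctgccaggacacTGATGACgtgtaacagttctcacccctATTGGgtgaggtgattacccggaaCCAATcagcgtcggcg
H2-Q4, chr17:35379427-35379616, plus strand: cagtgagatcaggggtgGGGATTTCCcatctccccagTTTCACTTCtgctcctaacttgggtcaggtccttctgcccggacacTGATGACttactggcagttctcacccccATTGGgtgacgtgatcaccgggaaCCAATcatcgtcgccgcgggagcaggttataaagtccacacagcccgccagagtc
H2-M3, chr17:37270044-37270233, plus strand: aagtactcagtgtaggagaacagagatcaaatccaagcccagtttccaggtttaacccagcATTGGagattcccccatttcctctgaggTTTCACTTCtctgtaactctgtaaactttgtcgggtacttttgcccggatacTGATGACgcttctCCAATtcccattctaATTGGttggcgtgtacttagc

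The interferon-type run was found in 4 of the 8 class I genes with a window (H2-Q4, H2-Q6, H2-Q7 and H2-M3), in none of the 6 class II genes and in 2.15% of all genes. The NF-kB-type run was found in H2-Q4, H2-Q6 and H2-Q7, in no class II gene and in 1.12% of all genes. The stretches of H2-Q4, H2-Q6 and H2-Q7 are close to each other letter for letter, so their matches to any of these motifs are not independent. H2-M5, H2-T23, H2-T22 and H2-M2 held neither run in these windows, which were searched for these letters only, so variants were not counted. H2-Q6 and H2-Q7 held the same 5 matches in the same order. The annotated starts of transcription place these matches 39 or 40 bases apart relative to the start. Their falls differed in size, though the split of reads between these genes is uncertain. Whether any of these runs bears on the changes was not tested.

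**Figure D3:**
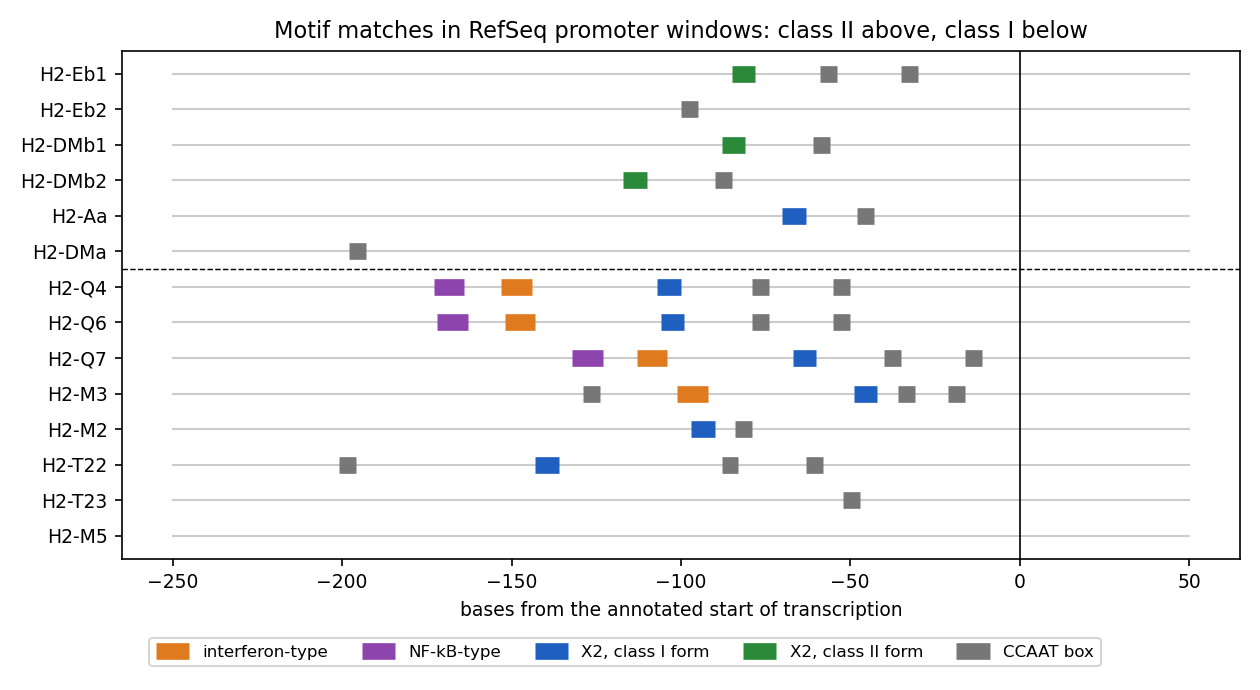
Positions of the motif matches in the promoter windows, in bases from the annotated start of transcription, with class II genes above the dashed line and class I genes below it. The NF-kB-type and interferon-type matches are found in class I rows only (3 and 4 of 8), and the class II form of X2 in 3 of 6 class II rows.

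Of the genes of class I assembly, Tap1 was the member listed. It encodes a subunit of the peptide transporter and had 5126, 6151 and 8372 normalised reads in controls and 3344, 3676, 4744 and 4861 in KA. Groups did not overlap, and the log2 fold change was -0.66 (SE 0.19; adjusted p = 0.00748). Cd1d1 is a class I-like gene that presents lipids to natural killer T cells and lies on chromosome 3 (86995834 to 86999441). It went against the class I heavy chains, with 20.8, 22.7 and 20.9 in controls and 130, 142, 150.4 and 153 in KA, which is 2.74 on the log2 scale (SE 0.23; adjusted p = 1.1e-05). Its KA values lay close together, from 130 to 153. Of its 50-base windows 19.1% also occur in Cd1d2, so reads of these genes are not fully separable.

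Members on chromosome 17 lie within 3509 kb. In the 10 listed genes between H2-DMa and H2-Eb2 (34135182 to 34340229), 7 were higher and 3 lower in KA. The 7 that were higher are the class II members. Those that were lower are Tap1, its neighbour Psmb9, a subunit of the immunoproteasome, and Gm20496. These 3 follow each other among the listed genes, between the H2-DM genes on one side and H2-Ab1, H2-Aa, H2-Eb1 and H2-Eb2 on the other. Over the whole span, 43 further genes are listed, 20 higher and 23 lower, a mixture of directions.

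Libraries were ranked differently by the 2 classes within KA. Summed over the 12 class I heavy chains, controls held 31954, 39033 and 47272 normalised reads and KA libraries 16147, 20188, 23521 and 26290.4. Summed over the 9 class II genes, controls held 28359, 25487 and 35056 and KA libraries 74378, 67585, 61524 and 47835. KA 1 was the lowest KA library in 10 of the 12 class I heavy chains and the highest in 8 of the 9 class II genes. KA 4 was the lowest in 7 of the 9 class II genes and the highest in 8 of the 12 class I genes. Among controls, control 3 was highest in 9 of the 12 class I genes and in 8 of the 9 class II genes, while the lowest library differed: control 1 in 9 of the 12 class I genes and control 2 in 7 of the 9 class II genes. With 4 KA libraries no relation between the classes was tested.

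**Figure D4:**
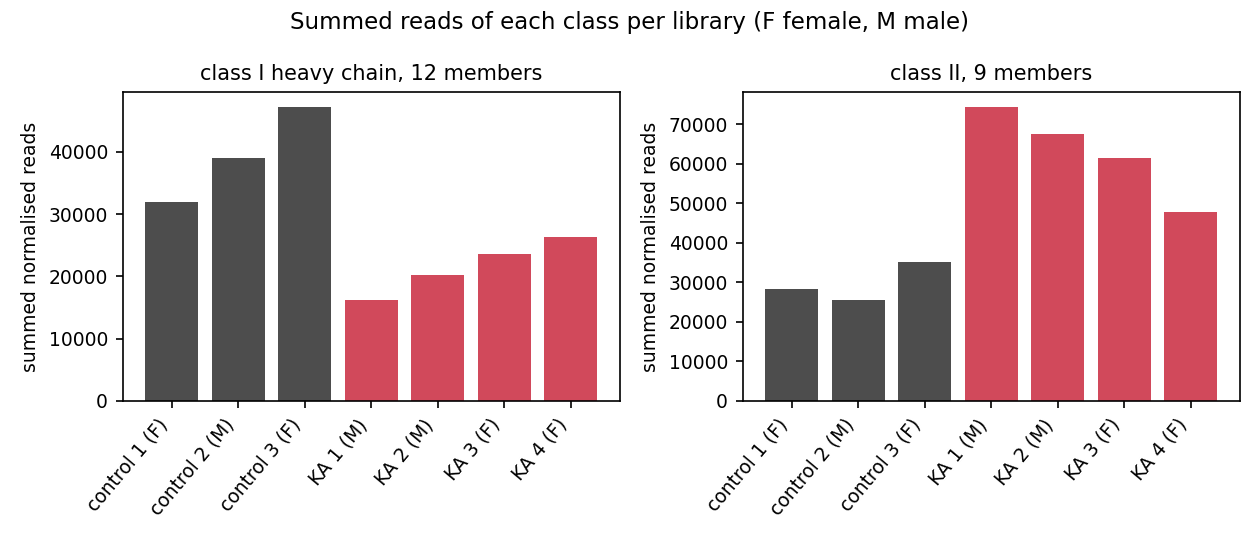
Normalised reads summed over the 12 class I heavy chains (left) and the 9 class II genes (right), 1 bar per library, with the sex of the animal in brackets. All KA bars lie below the control bars on the left, and above them on the right.

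KA males had lower class I and higher class II sums than KA females. Within KA, sex and the run of animal numbers in the titles cannot be told apart: both males have numbers of the lower run and both females of the higher run. Controls 1 and 2 belong to the lower run and control 3 to the higher. Whether the effect of genotype differed by sex was tested for each gene, with 1 male control. Of the 23 members none had an adjusted p under 0.05 for the interaction by edgeR or by DESeq2. By edgeR 2 members, H2-Aa and H2-Ab1, had an unadjusted p under 0.05, against 2.85% of all genes tested (193 of 6761, of which 3 passed after adjustment). Their interaction values were 0.77 (SE 0.31; unadjusted p = 0.0282 in edgeR) and 0.76 (SE 0.33; unadjusted p = 0.0412 in edgeR), with the rise larger in males. The number of members at this unadjusted level was unsteady: 4 by DESeq2, 6 in a fit that included the number run, 6 without control 1, 5 without control 3, 3 without KA 2, 9 without KA 3, and 0 without KA 1 or without KA 4.

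In the females alone, 2 controls and 2 KA, 7 of the 9 class II genes and 6 of the 12 class I heavy chains passed, against 60.8% of all genes tested, and Tap1 did not (adjusted p = 0.0893). In the lower run of animal numbers alone, again 2 against 2, 8 of the 9 class II genes, 11 of the 12 class I heavy chains and Tap1 passed, against 90.9% of all genes tested. H2-Eb2 was not among the genes tested there, and H2-T23 did not pass (adjusted p = 0.076). The higher run holds 1 control and was not fitted alone.

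Coactivators of the classes moved in opposite directions. Nlrc5, the class I coactivator, had 3624, 3306 and 3254 normalised reads in controls and 1299.8, 1523, 1763 and 2049 in KA, with no overlap and a log2 fold change of -1.03 (SE 0.15; adjusted p = 0.000208). As in the class I sums, KA 1 was the lowest and KA 4 the highest KA library. Controls ran the other way: control 3 had the lowest Nlrc5 and the highest class I sum (47272 normalised reads). Control 3 likewise had the lowest Ciita (136) and the highest class II sum (35056). Whether coactivator and class levels are related was not tested. Psmb9 had 1202, 1926 and 2632 in controls and 869, 1155, 1337 and 1517 in KA, with overlap. Its log2 fold change of -0.66 (SE 0.25; adjusted p = 0.0282) did not pass without control 2 (adjusted p = 0.062), control 3 (0.169), KA 1 (0.0583) or KA 2 (0.0606). Nlrc5 and Psmb9 were picked from the pathway lists after their values were seen.

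A list of 13 genes that supply and load class I peptides had 8 in the table, where 36.5% of the authors' genes are listed. Of these, 6 passed as higher and 2, Nlrc5 and Psmb9, as lower (52.5% and 47.5% over all genes tested). The list had a median log2 fold change of 0.70 against 0.36 for all genes tested. Its most abundant listed members are chaperones of the endoplasmic reticulum that also fold other proteins, and all rose. As means ± SD of 3 controls and 4 KA libraries, Pdia3 went from 7550.4 ± 995 normalised reads to 13213 ± 2125, Calr from 5805 ± 949 to 12248 ± 2476, Hspa5 from 4190.2 ± 457 to 8271 ± 1618 and Canx from 4855 ± 477 to 7274 ± 929.7. Psme2, a subunit of the PA28 activator of the proteasome, rose as well, from 2997 ± 709 to 6553 ± 354 (log2 fold change 1.13, SE 0.16; adjusted p = 0.000201), and like Nlrc5 and Psmb9 is named for its values.

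For class II processing, 5 of 17 genes of the pathway list were in the table, against 36.5% of the authors' genes. Of these, 3 passed as higher and 2 as lower (52.5% and 47.5% over all genes tested), with a median log2 fold change of 0.46. Cd63, a tetraspanin of late endosomes, had 1709.5 ± 359.5 normalised reads in controls (mean ± SD, n = 3) and rose to 3072 ± 331 in KA (n = 4), and Ifi30, a lysosomal thiol reductase, from 1682 ± 152 to 2317 ± 221. Ctsl, a lysosomal protease, fell from 2728 ± 484 to 1172 ± 258. Marchf8, a ubiquitin ligase that takes class II off the surface, fell from 1480.1 ± 36.1 to 860.5 ± 106. Ctss, the protease that trims the invariant chain in antigen-presenting cells, rose most, from 335 ± 61.4 to 949 ± 211 without overlap (adjusted p = 0.000114), and is named for its values. Ctss and Ctsl moved in opposite directions.

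Of 17 costimulators and ligands of T cell and natural killer receptors, 8 were in the table, against 36.5% of the authors' genes. Of these, 7 passed as higher and 1 as lower (52.5% and 47.5% over all genes tested), with a median log2 fold change of 1.90. H60c, a ligand of the NKG2D receptor, had 724 ± 57.4 normalised reads in controls (mean ± SD, n = 3) and rose to 1394 ± 113 in KA (n = 4). Cd274, which encodes PD-L1, rose from 128 ± 43.9 to 335 ± 106. Icosl, the ligand of ICOS, rose from 47.9 ± 12.1 to 294 ± 41.9, and Cd86, a ligand of CD28, from 75.3 ± 23.4 to 230.2 ± 35.6. The exception in direction was Tnfrsf14, at 75 ± 34.8 in controls and 28.1 ± 10.8 in KA, with overlap.

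Genes of the interferon gamma pathway did not move as one. Of 19 on the list 7 were in the table, against 36.5% of the authors' genes. Of these, 2 passed as higher and 5 as lower (52.5% and 47.5% over all genes tested), with a median log2 fold change of -0.53. Ifngr2, a receptor subunit, had 838 ± 73 normalised reads in controls (mean ± SD, n = 3) and rose to 1443 ± 146 in KA (n = 4), while Irf9, a subunit of the ISGF3 factor, fell from 1158 ± 234 to 522 ± 72.6. Ifngr1 was at 3886 ± 886 in controls and 2697 ± 569 in KA, with overlap, and did not pass without control 2 (adjusted p = 0.0906), control 3 (0.066) or KA 2 (0.0514). Irf2 was at 738 ± 78.6 in controls and 576 ± 49.2 in KA, and did not pass without control 1 (adjusted p = 0.0503), control 3 (0.0917) or KA 2 (0.0624). Irf8, a factor of myeloid cells, is the other gene that was higher, from 54.4 ± 7.17 to 200.5 ± 49.8. The interferon-inducible GTPases Igtp and Irgm1 were lower, with overlapping groups, by -1.37 (SE 0.42; adjusted p = 0.0112) and -1.23 (SE 0.36; adjusted p = 0.00907) on the log2 scale, with Igtp not passing without control 3 (adjusted p = 0.0525).

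**Figure D5:**
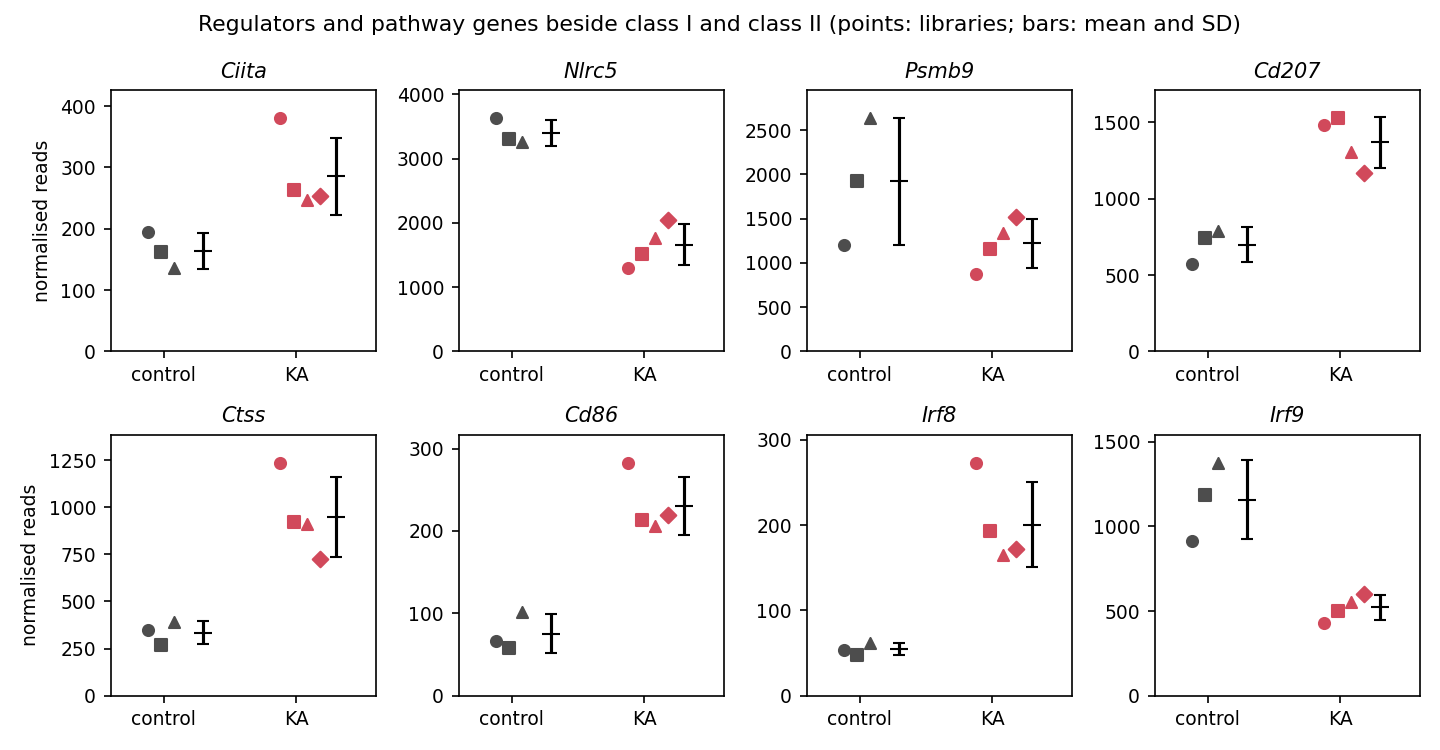
Normalised reads of coactivators and pathway genes, 1 point per library with the marker shapes of the plot of members by library, beside the mean and SD of each group (n = 3 controls, n = 4 KA). Ciita, Cd207, Ctss, Cd86 and Irf8 lie higher in all KA libraries than in all controls, Nlrc5 and Irf9 lie lower, and Psmb9 overlaps.

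Markers of cells that could carry these transcripts also moved. The tissue label was met by keratinocyte markers: of 8, Krt5, Krt14 and Krt1 are listed (36.5% of the authors' genes are). All of these were higher in KA, against 52.5% of all genes tested. Krt14 was at 116254 normalised reads in controls and 348564 in KA (group means). Krt5 did not pass with the replicate block by sample number (adjusted p = 0.0901) or in the females alone (0.174). Of 11 Langerhans cell genes 7 are listed, against 36.5% of the authors' genes, with 6 passing as higher and 1 as lower (52.5% and 47.5% over all genes tested). Their summed level was 9577 to 13856 normalised reads in controls and 23328 to 32714 in KA, and none was at 0. Cd207, which encodes langerin, had 569.9, 742 and 785 in controls and 1481, 1524, 1305 and 1165 in KA. Its log2 fold change of 0.97 (SE 0.15; adjusted p = 0.000322) stands beside 0.96 for H2-Aa and 1.09 for H2-Ab1. Mfge8 took most of the summed rise, from 909 ± 177 (SD, n = 3) to 15970 ± 3636 (SD, n = 4), and Epcam, also made by keratinocytes, went from 4540.4 ± 1102 to 7739 ± 788. Il34, a cytokine for Langerhans cells that keratinocytes make, fell from 4101 ± 804 to 1392 ± 278. The part of Langerhans cell number in the class II rise was not tested.

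Beside each count of marker genes below stand the shares over the data. Of the authors' genes 36.5% are listed, and of all genes tested 52.5% passed as higher and 47.5% as lower. Of 24 genes of dendritic cells and macrophages 14 are listed, 9 passing as higher and 5 as lower. Their summed levels were 1091 to 1578 normalised reads in controls and 1549 to 2175 in KA. Itgax had 183 ± 35.4 in controls (mean ± SD, n = 3) and rose to 440.8 ± 49.6 in KA (n = 4), Tyrobp rose from 174 ± 31.9 to 330.4 ± 104 with overlap, while Fcer1g fell from 288 ± 14.5 to 210.1 ± 3.95 and Irf4 from 219.96 ± 137 to 65.6 ± 17.2, a log2 fold change of -1.74 that was -1.13 without control 1. Fcer1g did not pass with a replicate block by sample number (adjusted p = 0.0579) or in the lower run of animal numbers alone (0.082). Neither Fcer1g (0.1) nor Tyrobp (0.188) passed in the females alone. Aif1 was at 0 in control 1. The leukocyte genes Lcp1, Laptm5 and Coro1a, 3 of 4 on their list, all passed as higher, with sums of 1950.5 to 2997 in controls and 3986 to 5212 in KA. T cell genes, 6 of 15 listed, went 2 higher and 4 lower, with sums of 1475 to 1858 in controls and 1047 to 1227 in KA. B cell genes were listed for 2 of 6, both higher (103 to 180 against 241 to 328), and neutrophil genes for 1 of 6. That gene, Cxcr2, a chemokine receptor, held 0, 1 and 5 counts in controls and 390, 195, 211 and 278 in KA, and passed as higher (adjusted p = 4.81e-06). Endothelium had 1 of 4 listed, higher, and melanocytes 2 of 5, both lower, while mast cells and dermal fibroblasts had none of 5 and none of 6. The part of these cells in the values of the members was not tested.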

How the data were processed

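RNA of epidermis from 4 KA and 3 control mice was measured by bulk sequencing. Per the submitters' processing notes, fastp, STAR 2.6.1d, featureCounts 1.5.0-p3, DESeq2 1.40.2 and the build mm10 were used, with no roles or strand setting given. Per the file headers and values, the deposited table holds raw read counts per gene, the authors' normalised reads (a signal scale, counts over 1 size factor per library), and the authors' log2 fold changes, test scores and p-values. The p-values served to recover the 19407 genes the authors adjusted over, and 0 columns belonged to other samples. Only genes with an authors' adjusted p-value under 0.05 are listed, so column totals are not depths.

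Counts were tested with edgeR 4.0.16 (R 4.3.3) across all genes kept by filterByExpr (330 left out), scaled by the authors' size factors, with glmQLFit, glmQLFTest and Benjamini-Hochberg adjustment over 6761 genes. SE was obtained by dividing the log2 fold change by the root of the F statistic. TMM factors from the listed genes shifted log2 fold changes by a median of -0.134. The code was checked on simulated data in which few genes changed, unlike this table, where nearly every gene passed. Alternatives were TMM and RLE factors, other filters, DESeq2 1.42.0, adjustment over 19407 genes, covariates, and libraries left out.

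All 23 identifiers matched GENCODE M21 (GRCm38), 15 with identical start and end. Gene positions are those of the table. Shared windows were counted over all annotated transcripts. Promoters are RefSeq's. Every member is named, and of each further list the 4 listed genes with the highest mean level, with others named for their values. Members, lists and motifs were chosen with earlier results of these data known.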

Additional observations from a re-analysis of the deposited data

Results flagged for a closer look

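In 63 genes, the members and those named by level from the lists, the 4 KA libraries were checked for 1 library far from the rest, as its gap to the nearest other over the whole range. The 95% limit of Dixon's test was passed in 3 genes, where chance gives about 1 in 20. Ciita stood high in KA 1 with a ratio of 0.88, where the 4 KA values were 380, 263, 246 and 253 normalised reads. H2-DMa stood low in KA 4 with a ratio of 0.943, where the values were 1484, 1455, 1471 and 968. Itgax stood low in KA 3 with a ratio of 0.919. Without KA 1 the log2 fold change of Ciita was 0.63, and without KA 4 that of H2-DMa was 0.91, both of the same sign as with all libraries.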

How the results depend on the processing

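Of 433 values of single members under alternatives, 396 kept their side of the threshold, 37 no longer passed and 0 changed sign. Requiring a log2 fold change of at least 1 left 2795 of 6758 genes called in the table, 6 of 12 class I heavy chains, 0 of 1 assembly genes and 4 of 9 class II genes. Females alone gave 4099 genes, 6 class I heavy chains, 0 assembly genes and 7 class II genes. Fewer samples enter that fit, and a fit for H2-Eb2 was not had in 4 settings that left out libraries. Adjusted over 19407 genes, 87.8% of the genes tested passed (5934), and 3 members did not: H2-T23 (0.081), H2-M6-ps (0.0564) and H2-DMb1 (0.0527). Deviations of same-numbered libraries correlated by -0.192, 0.129 and -0.0969, which cannot show whether the samples were paired. The titles also carry letters shared by the groups: A for control 1 and KA 1, B for control 2 and KA 2. Control 3, KA 3 and KA 4 carry the letter C. What the letters mean is not stated, and a block by letter was not fitted. In the block by sample number KA 4 stands alone and does not inform the genotype term. With the replicate block by sample number 6120 genes, 11 class I and 9 class II members passed, and H2-M6-ps was the 1 member that did not (0.0537). For the sex interaction no member passed under any alternative. It could not be fitted without control 2.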
